A study of Mus musculus with 6 samples.

Results

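Lysosomal cathepsins are described here in transplanted mouse hearts: the 9 genes Ctsa, Ctsb, Ctsc, Ctsd, Ctsh, Ctsk, Ctsl, Ctss and Ctsz, of 12393 genes with a probe set of their own. They were taken by name, and all 9 were found, with 14 probe sets between them. Ctsb had 4 probe sets, Ctsz had 3 and the other 7 genes had 1 each. Total RNA was measured on 6 arrays, 1 for each group: an untreated syngraft, from a syngeneic transplant, an untreated allograft, and allografts from mice given 1 of 4 agents. BH4 (tetrahydrobiopterin, a cofactor that nitric oxide synthases need) and its analog ABH4 (4-amino tetrahydrobiopterin) were each given at 50 mg/kg at intervals of 8 h. Unlike BH4, ABH4 is an inhibitor of these synthases. The NIL dose was 5 mg/kg at intervals of 8 h (N-imino ethyl-L-lysine, which blocks inducible nitric oxide synthase). The CsA dose was 15 mg/kg at intervals of 24 h (cyclosporin A, which blocks calcineurin). The sources used here do not give mouse strains, age, time after transplantation or any pooling of grafts.

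Cathepsins are the proteases of the endosome and lysosome. Most are cysteine proteases of the papain family (Ctsb, Ctsc, Ctsh, Ctsk, Ctsl, Ctss, Ctsz), whereas Ctsd is an aspartic protease and Ctsa a serine carboxypeptidase. They are made as inactive precursors, carried to the lysosome largely by mannose 6-phosphate receptors, activated by acid and by other proteases, and held in check by cystatins. Beyond general protein breakdown, Ctss trims the invariant chain of MHC class II, Ctsc activates granzymes, and Ctsk cuts collagen and is best known from osteoclasts.

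These genes did not follow a common pattern. Ctss, Ctsh, Ctsc and Ctsz were higher in the untreated allograft than in the syngraft, and with CsA they lay between those 2 arrays. Ctsk went the opposite way and differed more than any other member, from a signal of 391.9 in the syngraft to 59.7 in the untreated allograft. Ctsb, Ctsd and Ctsa differed by at most 1.25-fold over all 6 arrays by their brightest probe sets. With 1 array per group there is no replicate, so no test was made and no order between neighbouring arrays can be set against a spread. The values are hybridisation signals on a linear scale, each array rescaled to a common median. The number of arrays limits their precision.

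Promoter sequence is shown for 4 members that stand for these patterns: Ctss and Ctsk, which moved in opposite directions and lie near each other on mouse chromosome 3 with 1 annotated gene (the long noncoding RNA Gm40096) between them, and Ctsd and Ctsa, which moved little. The sequences are from RefSeq (build GRCm38.p6), which held 7 of the 9 members and 2 starts for Ctsa. Ctsb and Ctsh had no entry. Each window is the 250 bases before the annotated start, 5′ to 3′ on the gene's strand, and capitals mark matches to 3 motifs searched on both strands. These were CACGTG (the core of the element bound by TFEB, a regulator of lysosomal genes), GAAA followed after any 2 bases by GAAA (a form of the interferon regulatory factor element) and TTCNNNGAA (a form of the STAT element).

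Ctss, chr3:95526536-95526785, plus strand: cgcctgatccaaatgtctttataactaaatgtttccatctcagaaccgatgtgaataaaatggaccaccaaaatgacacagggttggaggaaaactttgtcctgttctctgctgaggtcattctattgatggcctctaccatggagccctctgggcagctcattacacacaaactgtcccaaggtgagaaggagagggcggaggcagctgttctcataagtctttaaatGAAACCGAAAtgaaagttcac
Ctsk, chr3:95498960-95499209, plus strand: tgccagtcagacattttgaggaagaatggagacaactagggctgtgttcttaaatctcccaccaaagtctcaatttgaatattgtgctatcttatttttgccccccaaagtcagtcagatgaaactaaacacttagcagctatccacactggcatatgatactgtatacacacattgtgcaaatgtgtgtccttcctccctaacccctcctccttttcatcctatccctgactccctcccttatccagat
Ctsd, chr7:142387828-142388077, minus strand: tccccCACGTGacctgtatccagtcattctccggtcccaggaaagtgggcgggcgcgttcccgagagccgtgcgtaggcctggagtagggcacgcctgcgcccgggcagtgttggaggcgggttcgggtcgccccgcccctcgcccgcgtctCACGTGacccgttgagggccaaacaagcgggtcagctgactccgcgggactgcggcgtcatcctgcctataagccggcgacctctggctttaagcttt
Ctsa, second start, chr2:164833523-164833772, plus strand: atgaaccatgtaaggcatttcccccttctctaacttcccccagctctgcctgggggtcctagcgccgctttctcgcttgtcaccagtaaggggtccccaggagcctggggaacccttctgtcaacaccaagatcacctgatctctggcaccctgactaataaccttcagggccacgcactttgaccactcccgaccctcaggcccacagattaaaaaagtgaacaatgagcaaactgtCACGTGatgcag

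The Ctss window held 1 match to the paired GAAA element, beginning 21 bases before the start. Of 32851 promoter windows of this length in the table, 2.98% held it. The Ctsd window held CACGTG at 245 and 98 bases before the start, the window of the second Ctsa start held it at 12 bases, and the Ctsl window held it at 236 bases. CACGTG was found in 6.02% of all windows. The Ctsc window held TTCNNNGAA at 236 bases, a motif in 7.02% of all windows. None of the 3 motifs was matched in the windows of Ctsk, Ctsz and the first Ctsa start. No window of a member held more than 1 kind of motif. A match describes the letters of the window and not a bound site.

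**Figure D1:**
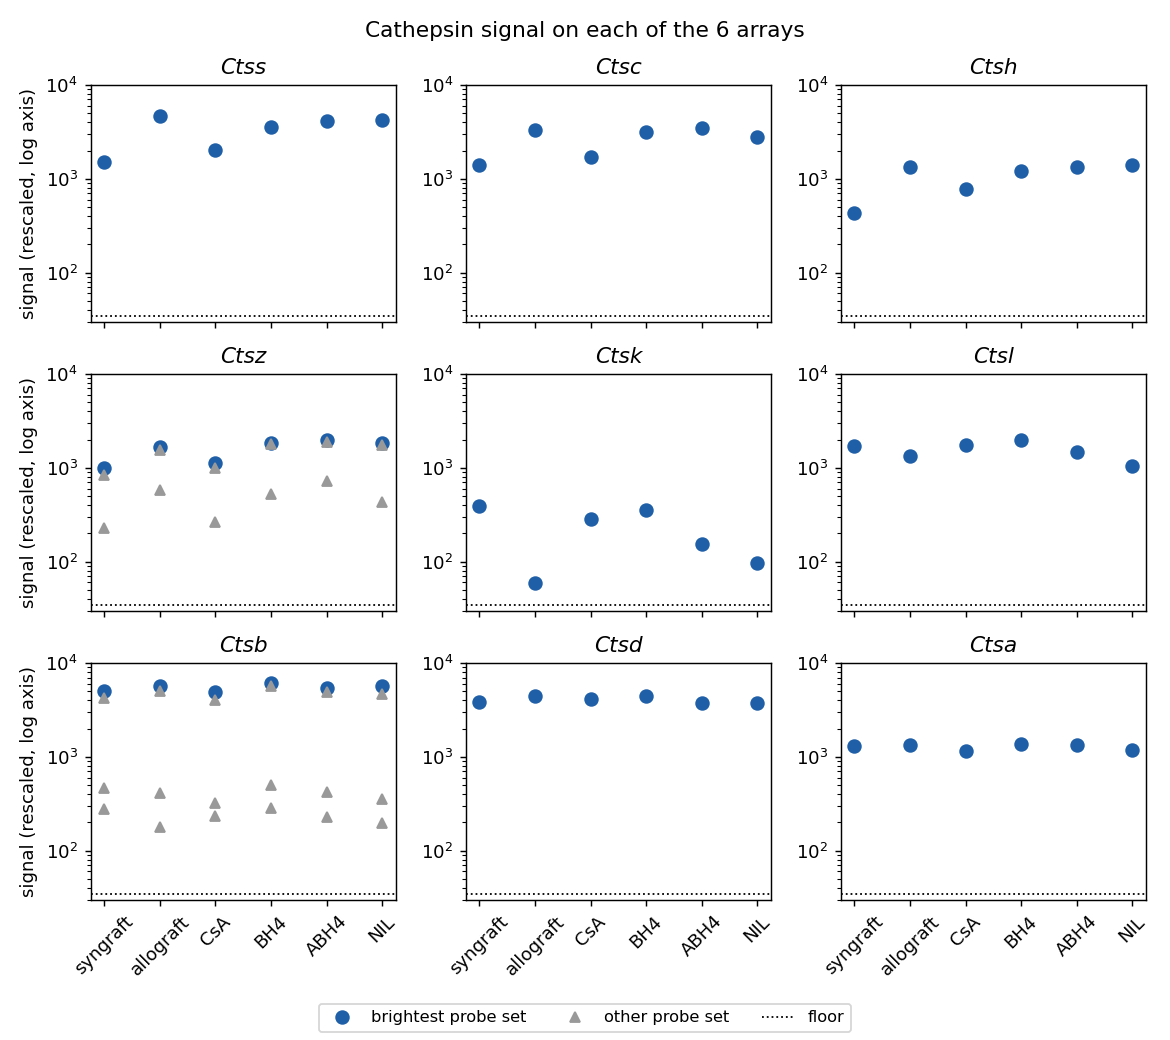
Rescaled signal (log axis) of each cathepsin on the 6 arrays, with circles for the brightest probe set of a gene, triangles for its other probe sets and a dotted line at the floor of 34.8. Ctss, Ctsc, Ctsh and Ctsz are lowest on the syngraft and next lowest with CsA, Ctsk is lowest on the untreated allograft, and the brightest probe sets of Ctsb, Ctsd and Ctsa are nearly level.

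Signals below the 30th percentile of all values (34.8) were set to that floor before log2 was taken, and no member was at the floor on any array. Each gene is represented by its brightest probe set. Genes are counted as higher or lower from a difference of at least 1.5-fold, a descriptive limit. The median deposited signal of an array was between 77.6 and 88.5, and rescaling changed log2 values by -0.09 to 0.10. The heart origin was borne out by the 12 cardiomyocyte genes, of which 0 were at the floor on any array. The macrophage list had up to 2 of 20 genes at the floor on an array and the fibroblast and matrix list up to 3 of 15. Salivary gland genes were bright with BH4: the summed signal of 5 such genes was 13441 there and between 228 and 519 on the other arrays.

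The first comparison, of the untreated allograft with the syngraft, sets a graft across a donor-recipient difference beside a graft without one. Of the 9 cathepsins, 4 were higher (Ctss, Ctsh, Ctsc and Ctsz), 1 was lower (Ctsk) and 4 lay between. Over all genes, 15.4% were higher and 11.9% lower by the same limit. The median log2 difference of the members was 0.19, against 0.00 for all genes. On the deposited values without rescaling, 1355 genes were higher and 2128 lower, against 1911 and 1472 here. The median difference of genes above the floor was 0.05 here and -0.13 on the deposited values. These are bulk samples, in which fewer cells of a type and less RNA per cell cannot be told apart.

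Ctss, the cathepsin of antigen-presenting cells that acts on the invariant chain, had signals of 1520.0 in the syngraft, 4676 in the untreated allograft, 2012 with CsA, 3566 with BH4, 4122 with ABH4 and 4251 with NIL. It was thus 3.08-fold higher in the untreated allograft than in the syngraft. The syngraft and CsA arrays were low and the other 4 were high, with BH4 the lowest of those 4. Its level with CsA was 2.32-fold below the untreated allograft and 1.32-fold above the syngraft.

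Genes of MHC class II, the pathway that Ctss serves, lay on the same side: 8 of 8 measured were higher in the untreated allograft (median log2 difference 1.72) and 7 of 8 were lower with CsA (median -1.18). Of all genes, 15.4% were higher in the untreated allograft than in the syngraft, and 12.2% were lower with CsA than without treatment. Cd74, which encodes the invariant chain itself, was 3.63-fold higher in the untreated allograft and 2.51-fold lower with CsA. H2-DMa and H2-Ab1, the members with the largest differences, were 6.71-fold and 3.92-fold higher in the untreated allograft. All 8 listed genes induced by interferon-gamma were also higher there (median 3.51), led by Gbp2 at 27.5-fold and Cxcl9 at 24.8-fold, and 6 of 8 were lower with CsA (median -0.94). Their median with CsA was still 2.11 above the syngraft, where Ctss was 0.40 above it.

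Ctsh, an aminopeptidase, had signals of 435 in the syngraft, 1337 in the untreated allograft, 777 with CsA, 1211 with BH4, 1328 with ABH4 and 1414 with NIL. It was 3.08-fold higher in the untreated allograft than in the syngraft, as Ctss was, but its level with CsA was only 1.72-fold below the untreated allograft. With CsA it remained 1.79-fold above the syngraft and was the only member at least 1.5-fold from the syngraft on that array. After quantile normalization the CsA difference from the untreated allograft was -0.50, within the limit.

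Ctsc, also called dipeptidyl peptidase I, the activator of granzymes, had signals of 1393 in the syngraft, 3338 in the untreated allograft, 1709 with CsA, 3128 with BH4, 3440 with ABH4 and 2807 with NIL. The untreated allograft was 2.40-fold above the syngraft, and the CsA array was 1.95-fold below the untreated allograft. Again the syngraft and CsA arrays were the lowest of the 6. Gzma, a granzyme, was 22.6-fold higher in the untreated allograft than in the syngraft and 13.7-fold lower with CsA than without treatment. Gzmb, another granzyme, did not rise above the floor on the syngraft array. It was at least 112-fold higher in the untreated allograft and 11.2-fold lower with CsA than without treatment.

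Ctsz, a carboxypeptidase also called cathepsin X, had signals by its brightest probe set of 991 in the syngraft, 1685 in the untreated allograft, 1128 with CsA, 1831 with BH4, 1971 with ABH4 and 1815 with NIL. All 3 of its probe sets were higher in the untreated allograft than in the syngraft, by 1.70-fold, 1.84-fold and 2.54-fold. They were lower with CsA than without treatment by 1.49-fold, 1.56-fold and 2.23-fold in the same order. The brightest probe set therefore falls just short of the limit with CsA and the other two pass it. The log2 difference of the untreated allograft from the syngraft was 0.578 on the deposited values and, with quantile normalization, 0.529, both short of the limit (0.585 on that scale).

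Ctsk, the collagen-cutting cathepsin, had signals of 391.9 in the syngraft, 59.7 in the untreated allograft, 287 with CsA, 359 with BH4, 153 with ABH4 and 97.1 with NIL. It was lowest on the untreated allograft and highest on the syngraft, and all 5 allografts lay below the syngraft. The untreated allograft was 6.57-fold below the syngraft (log2 difference -2.71). CsA and BH4 stood near the syngraft, NIL near the untreated allograft, and ABH4 between. With a floor at the 50th percentile (83.3) the untreated allograft is at that floor, and its log2 difference from the syngraft becomes a bound, at least as low as -2.23.

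Against the syngraft, 11.9% of all genes were lower and 15.4% higher in the untreated allograft. Beside Ctsk, 13 of 15 fibroblast and matrix genes were lower in the untreated allograft than in the syngraft (median -2.90), and 1, Thy1, was higher. The summed signal of this list was 33918 in the syngraft, 6528 in the untreated allograft, 30013 with CsA, 21701 with BH4, 11969 with ABH4 and 6128 with NIL. This sum was higher with CsA than with BH4, whereas Ctsk was higher with BH4 (359) than with CsA (287). Pdgfra, Tcf21 and Fap, which mark fibroblasts, were at the floor on the untreated allograft. Collagen chains, substrates of Ctsk, were among the lower genes: Col1a1 was 8.14-fold lower in the untreated allograft. The matricellular protein gene Postn (14.3-fold) and the collagen-binding Lum (11.7-fold) were also lower, and Pdgfra, at the floor, was at least 8.91-fold lower. Other lists also held lower genes there: 5 of 9 endothelial genes were lower and 0 higher, and 4 of 8 neutrophil genes were lower and 1 higher. The part of any of these genes in the Ctsk difference was not tested.

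Osteoclasts, the cells for which Ctsk is best known, were looked for by 9 genes. Calcr, Itgb3 and Tnfsf11 were at the floor on all 6 arrays, and Ocstamp was at the floor on all but the NIL array. The protease Mmp9 was 5.78-fold and the phosphatase Acp5 1.604-fold lower in the untreated allograft than in the syngraft, and Tnfrsf11a, the receptor of the osteoclast factor RANKL, was 1.52-fold lower. These were the 3 of 9 that were lower there, and 0 were higher (median -0.10). That median includes 4 genes at the floor on both arrays, whose difference was fixed at 0. Without them the median was -0.60, past the limit. Lowering the floor to the 10th percentile also gave -0.60. With CsA, Ctsk was 4.80-fold higher than without treatment. Of the 9 genes, 1 was higher there (Mmp9, 2.25-fold) and 1 lower (Acp5, 2.08-fold), with a median of 0.00. Over all genes, 9.31% were higher and 12.2% lower.

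Ctsl, an endopeptidase found in most tissues, had signals of 1698 in the syngraft, 1323 in the untreated allograft, 1729 with CsA, 1962 with BH4, 1472 with ABH4 and 1047 with NIL. BH4 and NIL were the extremes, 1.87-fold apart. The untreated allograft was 1.28-fold below the syngraft, and CsA and BH4 were 1.31-fold and 1.48-fold above the untreated allograft, none of which reached the limit. After quantile normalization these 3 differences were -0.63, 0.64 and 0.59, which pass it.

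Ctsb, an abundant endopeptidase and carboxypeptidase, had signals by its brightest probe set of 5085 in the syngraft, 5709 in the untreated allograft, 4898 with CsA, 6143 with BH4, 5427 with ABH4 and 5624 with NIL. The largest difference between any 2 arrays was 1.25-fold, and 1.42-fold for the next brightest probe set. The 2 dim probe sets went the other way in the comparison of the untreated allograft with the syngraft, 1.55-fold and 1.14-fold lower. One of them, with signals between 178 and 287, was lowest on the untreated allograft and also 1.62-fold higher with BH4. Probe sets of this gene therefore disagree, and the text uses the brightest.

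Ctsd, the aspartic protease, had signals of 3850.1 in the syngraft, 4392 in the untreated allograft, 4139.9 with CsA, 4394 with BH4, 3739.7 with ABH4 and 3705 with NIL, a span of 1.19-fold. Ctsa, the carboxypeptidase that also protects beta-galactosidase and neuraminidase, had signals of 1305 in the syngraft, 1328 in the untreated allograft, 1139.7 with CsA, 1367 with BH4, 1332 with ABH4 and 1183 with NIL, a span of 1.20-fold. Neither gene reached the limit in any of the 7 comparisons.

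**Figure D2:**
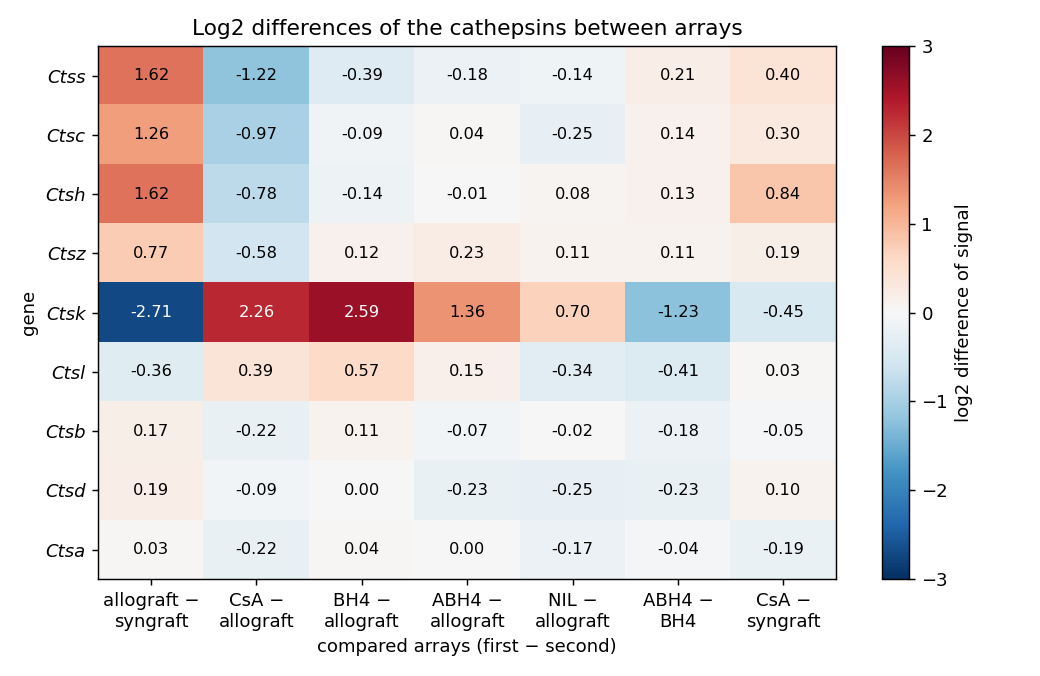
Log2 differences of the 9 cathepsins (rows) in 7 comparisons of 2 arrays (columns, first minus second), coloured from -3 to 3, with 1 array per group and no error. Ctsk passes 1.5-fold in 6 of the 7 columns, at -2.71 in the untreated allograft against the syngraft and 2.59 with BH4, and Ctsa, Ctsb and Ctsd are pale throughout.

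Treatment with CsA was compared with no treatment to see how the allograft profile differed under calcineurin inhibition. Of the cathepsins 1 was higher (Ctsk, 4.80-fold), 3 were lower (Ctss, Ctsc and Ctsh) and 5 lay between, with a median of -0.22. Over all genes, 9.31% were higher and 12.2% lower. The deposited values gave 1715 higher and 917 lower genes, and quantile normalization 1275 and 1083, against 1154 and 1516 here. The 3 members that were lower with CsA are among the 4 that were higher in the untreated allograft, but both comparisons use the untreated allograft array.

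Macrophages hold much lysosomal protease. Of 20 macrophage genes, 12 stood higher and 2 lower in the untreated allograft than in the syngraft (median 0.92). The shares over all genes were 15.4% higher and 11.9% lower. With CsA 11 stood lower and 2 higher than without treatment (median -0.60), where 12.2% of all genes were lower and 9.31% higher. With quantile normalization that median was -0.37, and without rescaling it was -0.42, both inside the limit. Their summed signal was 15893 in the syngraft, 24876 in the untreated allograft, 17685 with CsA, 28941 with BH4, 27621 with ABH4 and 27192 with NIL. The list was not uniform. Msr1 and Aif1 were 5.80-fold and 3.99-fold higher in the untreated allograft, whereas Csf1r, the receptor that macrophages need to survive, had signals of 1972 and 2027 and Adgre1, the antigen F4/80, 601 and 495. Mrc1, a scavenger receptor of resident macrophages, was 2.31-fold lower in the untreated allograft and 2.04-fold higher with CsA. Marco, at the floor on the untreated allograft, was at least 3.37-fold lower there than in the syngraft. T and NK cell genes were higher in the untreated allograft in 11 of 12 and lower with CsA in 11 of 12. The part of these cells in the cathepsin differences was not tested.

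CsA was then set beside the syngraft. Only Ctsh was at least 1.5-fold higher and 0 members were lower, with a median of 0.10. Over all genes, 6.83% were higher and 5.84% lower. Ctsk was 1.37-fold below the syngraft, Ctss 1.32-fold and Ctsc 1.23-fold above it, and the other 5 members differed by at most 1.14-fold.

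Treatment with BH4 was compared with no treatment. Ctsk was the only cathepsin at least 1.5-fold higher, at 6.01-fold, and 0 were lower, where 4.9% of all genes were higher and 3.35% lower. Ctsl followed at 1.48-fold, and Ctss was 1.31-fold lower. The other 6 members differed by at most 1.10-fold. Fibroblast and matrix genes were higher in 13 of 15 (median 1.86), and the macrophage list in 3 of 20 (median 0.27). The salivary transcripts of this array stood beside these values, and their part in them was not tested.

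With ABH4 Ctsk was again the only member past the limit, 2.56-fold higher than in the untreated allograft, and 0 were lower. Over all genes, 3.22% were higher and 2.49% lower (399 and 309 genes, or 467 and 220 on the deposited values). The other 8 members differed by at most 1.17-fold. Among fibroblast and matrix genes 11 of 15 stood higher and 1 lower (median 0.88).

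With NIL Ctsk was 1.63-fold higher, from 59.7 to 97.1, and no other member passed the limit in either direction, where 6.37% of all genes were higher and 5.33% lower (790 and 661 genes, or 1182 and 348 on the deposited values). With a floor at the 50th percentile the Ctsk difference was 0.22, a lower bound, and 0 members passed the limit. Ctsl was 1.26-fold lower and Ctsc and Ctsd were each 1.19-fold lower. Fibroblast and matrix genes were higher in 1 of 15 (median 0.00). The 4 treatment comparisons share the untreated allograft array.

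ABH4 and BH4 differ by an amino group in place of the oxo group at position 4 of the pterin ring. They were given at the same dose and interval and form the only pair of compounds related in structure. Ctsk was 2.35-fold lower with ABH4 than with BH4 (153 against 359) and 0 members were higher, where 3.24% of all genes were higher and 4.11% lower. Ctsl was 1.33-fold lower with ABH4 and Ctss 1.16-fold higher. The remaining 6 members differed by at most 1.17-fold. With 1 array for each compound no interval can be put on these differences, and nothing can be said of whether the compounds act alike on these genes. Fibroblast and matrix genes were lower with ABH4 than with BH4 in 11 of 15 (median -0.97).

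**Figure D3:**
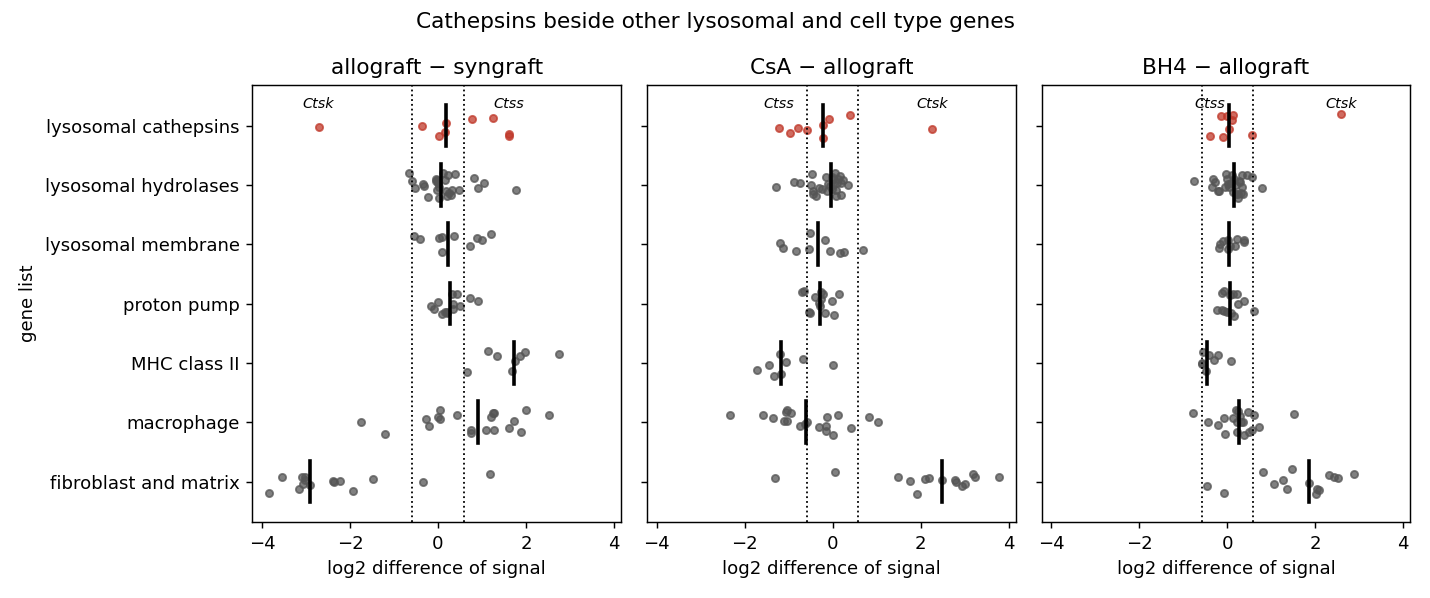
Log2 differences of signal for each measured gene of 7 lists (points, with vertical scatter only for legibility) in 3 comparisons of 2 arrays, with the list median as a black bar and dotted lines at 1.5-fold. Ctsk lies with the fibroblast and matrix genes (medians -2.90, 2.49 and 1.86) and apart from the other cathepsins. Its difference was larger with BH4 (2.59) than with CsA (2.26), the reverse of that list's medians. Hydrolases and proton pump genes gather near 0.

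Other lysosomal genes were counted in the same way in the untreated allograft against the syngraft, where 15.4% of all genes were higher and 11.9% lower. Of 28 other lysosomal hydrolases 4 were higher and 2 lower (median 0.07). Ifi30, counted in this list although it is a reductase of the antigen processing compartment, was 3.42-fold higher. The thioesterase Ppt1 was 2.06-fold higher. The sulfatase Ids was 1.58-fold and the peptidase Dpp7 1.51-fold lower. Of 10 genes of the lysosomal membrane and lumen 4 were higher and 0 lower (median 0.24), among them the cholesterol carrier Npc2 (2.01-fold) and Laptm5, a protein of blood cells (2.29-fold). Lamp1, a main protein of the membrane, had signals of 3009.9 and 3062. Of 14 subunits of the proton pump that acidifies the lysosome 2 were higher (median 0.26), Atp6v1h by 1.88-fold and Atp6v1b2 by 1.66-fold.

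With CsA these genes were mostly between the limits, as most genes were: over all genes, 12.2% were lower and 9.31% higher. Of 28 hydrolases 3 were lower and 0 higher (median -0.04), with Ifi30 2.45-fold and Acp2 1.83-fold lower. Among membrane genes 3 of 10 stood lower and 1 higher (median -0.34), with Laptm5 2.30-fold and Cln3 2.19-fold lower and the cystine carrier Ctns 1.61-fold higher. The Ctns signal was only 56.2 with CsA and 34.83 in the untreated allograft, barely above the floor. Proton pump genes were lower in 2 of 14 (median -0.28). Over all genes, between 3.22% and 6.37% were higher and between 2.49% and 5.33% lower with BH4, ABH4 and NIL. Of each of these lists, between 0 and 1 gene was higher there and between 0 and 1 lower. They were Glb1 (1.72-fold) and Atp6v1e1 (1.52-fold) higher and Ids (1.68-fold) lower with BH4, and Asah1 (1.56-fold) higher and Ids (1.54-fold) lower with ABH4. With NIL they were the glycosidase Idua (1.59-fold) and the cholesterol carrier Npc1 (1.92-fold), both lower. Of the MiT/TFE factors, which switch on lysosomal genes, Tfeb had signals of 156 in the syngraft and 152 in the untreated allograft and Mitf was 1.903-fold higher in the untreated allograft. Tfec was 2.07-fold higher with ABH4, at a signal of only 94.3.

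Genes that carry cathepsins to the lysosome or activate them were higher in the untreated allograft in 2 of 6 and lower in 0 (median 0.43). Over all genes, 15.4% were higher and 11.9% lower against the syngraft. M6pr, the small mannose 6-phosphate receptor, was 2.01-fold higher and Psap, the saposin precursor, 1.54-fold higher. Lgmn, the legumain that cleaves several cathepsins to their mature chains, had signals of 1147 in the syngraft and 1667 in the untreated allograft. Igf2r, the large receptor, had 855 and 732. With CsA M6pr was 1.602-fold lower, the only 1 of 6 past the limit, where 12.2% of all genes were lower and 9.31% higher.

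Of 7 inhibitors, 2 were higher and 1 lower in the untreated allograft than in the syngraft (median 0.06), against 15.4% and 11.9% of all genes. With CsA 1 was higher and 3 lower than without treatment (median -0.36), against 9.31% and 12.2% of all genes. The CsA median was -0.72, past the limit, with a floor at the 10th percentile. Cst3, cystatin C, the main secreted inhibitor, kept signals between 3971 and 4584 over the 6 arrays. Cstb, the cystatin of the cytosol, was 2.35-fold higher in the untreated allograft than in the syngraft and 1.67-fold lower with CsA. Cst7, the cystatin of cytotoxic cells that inhibits Ctsc, was at the floor in the syngraft and with CsA and at least 6.55-fold higher in the untreated allograft than in either. It was 1.70-fold higher with ABH4 than with BH4. Cst6 was above the floor only in the syngraft and with CsA, at signals of only 78.4 and 62.7. It was at least 2.25-fold lower in the untreated allograft than in the syngraft and at least 1.80-fold higher with CsA than without treatment. Ctla2a, an inhibitor resembling a cathepsin propeptide, had signals of 280 in the syngraft and 271 in the untreated allograft. With CsA it was below both, 1.70-fold lower than in the syngraft and 1.65-fold lower than without treatment. With BH4, ABH4 and NIL, 0 of 7 inhibitors passed the limit against the untreated allograft, and 2 of the 7 were at the floor on both arrays each time. Over all genes, between 3.22% and 6.37% were higher and between 2.49% and 5.33% lower.

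Other cathepsins were mostly not seen: of 12 measured, 8 were at the floor on all 6 arrays, among them Ctsg of neutrophil granules and placental members. Ctsw, the cathepsin of NK and cytotoxic T cells, was at the floor in the syngraft and with CsA and had signals of 269 in the untreated allograft, 155 with BH4, 259 with ABH4 and 326 with NIL. It was at least 7.73-fold higher in the untreated allograft than in the syngraft or with CsA, 1.74-fold lower with BH4 than without treatment and 1.67-fold higher with ABH4 than with BH4. Ctsf went the way of Ctsk against the syngraft, with signals of 108 in the syngraft, 50.6 in the untreated allograft and 95.3 with CsA, but was at the floor with BH4 and ABH4. Ctse had signals between 151 and 205.

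Genes with the most similar profiles were sought for the 4 members whose signals spanned at least 2-fold by the brightest probe set (Ctss, Ctsc, Ctsh and Ctsk). Likeness was the root mean square difference of log2 values, each gene centred on its own mean over the 6 arrays, among 1936 genes with a span of at least 2-fold and no array at the floor. Nearest to Ctss were Csf2rb2 (0.08), a receptor chain of myeloid cells, Tor1a (0.08) and Igsf6 (0.08). Nearest to Ctsh were Lair1 (0.04), an inhibitory receptor of leukocytes, Irf5 (0.08), a transcription factor of myeloid and B cells, and Pik3cd (0.09), the leukocyte phosphoinositide kinase. Nearest to Ctsc were the glycolytic enzyme Pgam1 (0.06), Ptpn18 (0.07) and Ppp1r15b (0.07). Among these candidates Ctsk had no neighbour so close: Antxr1, a collagen-binding receptor, was at 0.27, Cyp1b1 at 0.27 and Olfml3 at 0.29. Pdgfra, Tcf21 and Fap, at the floor on the untreated allograft, were not candidates. Distances were not scaled to a gene's span, which among the members was widest for Ctsk (6.57-fold). Which genes came nearest depended on the processing, as given in the closing section.

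**Figure D4:**
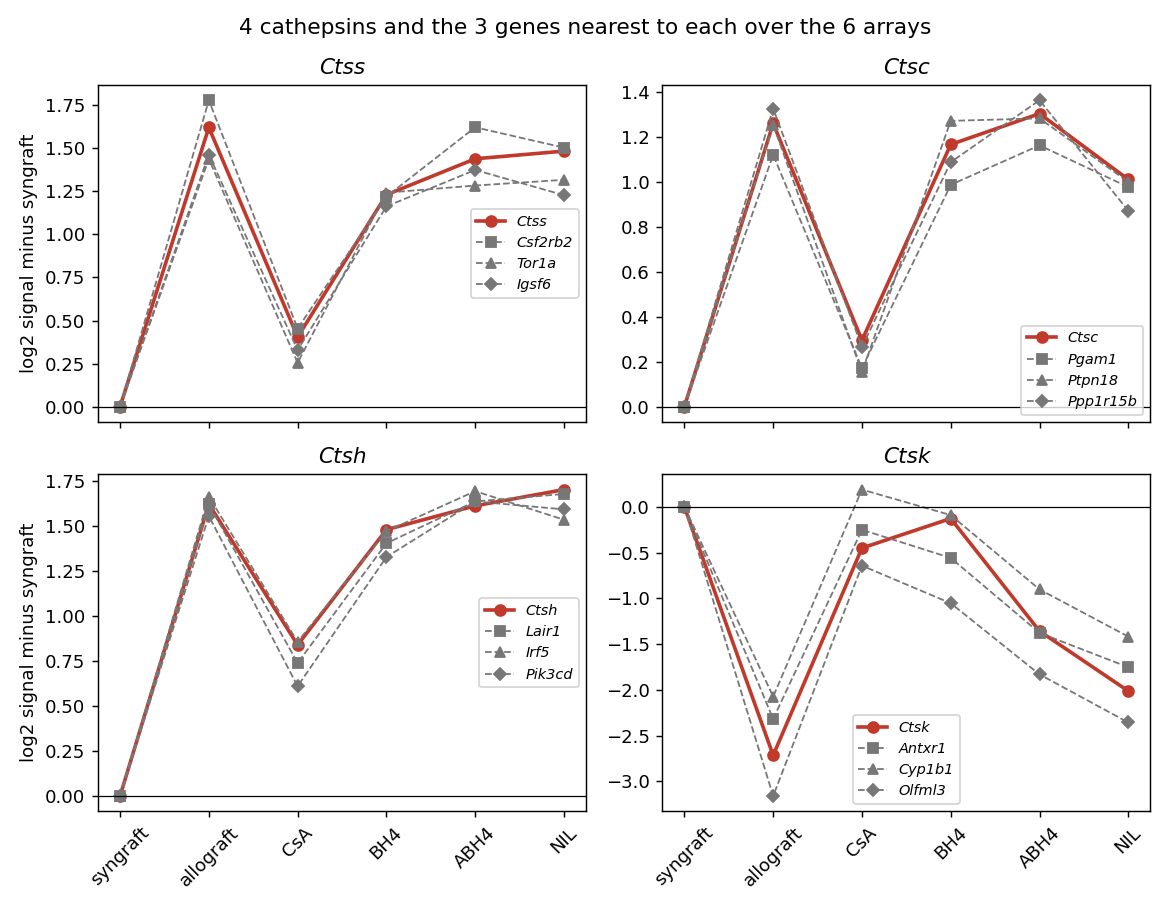
Log2 signal relative to the syngraft on the 6 arrays for Ctss, Ctsc, Ctsh and Ctsk (red) and the 3 genes nearest to each (grey). Lines only join the points of a gene and carry no order. Ctss, Ctsc and Ctsh and their neighbours drop with CsA, whereas Ctsk and its neighbours are lowest on the untreated allograft.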

How the data were processed

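The authors deposited 1 signal intensity for each of 22690 probe sets on 6 arrays of mouse cardiac grafts. Per the labels the samples are total RNA. The trimmed mean of every array, leaving out 2% at each end, was 200, so the deposited intensities had been scaled. How signals were summarised and corrected for background is not given in the sources used here.

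The 64 control probe sets were left out. Each array was rescaled to the mean of the 6 medians, values were floored at the 30th percentile and log2 was taken, with Python 3.11.15, numpy 2.4.6 and pandas 2.3.3. The brightest of a gene's probe sets assigned to exactly 1 symbol gave 12393 genes from 20380 probe sets. With 1 array per group no variance can be estimated and no p-value is given. Members, gene lists and the 1.5-fold limit were chosen with earlier results of these data known. The rule for named genes covered all members, the other cathepsins, inhibitors and sorting genes past the limit, the 2 largest differences in each direction of other lists, the nearest profiles and some marker genes. The rule was not followed in full. The leading genes of some lists with CsA are not named, nor are genes of some cell type lists, among them the neutrophil and endothelial lists. Lamp1, Tfeb, Igf2r, Ctse, Tnfrsf11a and the genes named because they were at the floor were added after their values were seen. Protein sequences were not used here. List genes without a probe set of their own were not analysed here. The steps were checked on simulated arrays. The alternatives were quantile normalization, the deposited values, a floor at the 10th or at the 50th percentile, the mean over probe sets, each single probe set and only genes above the floor.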

Additional observations from a re-analysis of the deposited data

How the results depend on the processing

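No paired analysis was possible because each group had 1 array. Of 84 counts of members (7 comparisons, 2 directions, 6 alternatives), 80 stayed within 1.5 times the reported count. Part of this was fixed in advance, because no member was at the floor on any array. The lower alternative floor and the restriction to genes above the floor could therefore not change any count of members. The floor at the 50th percentile could change only the calls of Ctsk. After quantile normalization 2 members instead of 1 were lower in the untreated allograft than in the syngraft, and 2 instead of 1 were higher with CsA and with BH4 than without treatment; Ctsl was the added gene each time. With a floor at the 50th percentile 0 members were higher with NIL, because the floor lies above Ctsk on the untreated allograft. Among 350 differences of single members, 12 crossed the 1.5-fold limit and 0 of those past it changed sign. Many of the 350 could not move. These were all differences at the lower floor and, at the 50th percentile floor, those of every member but Ctsk. The mean over probe sets could not move the 7 members with 1 probe set. The share of 12 in 350 therefore understates how often a value that could move crossed the limit. Besides the values given for Ctsl, Ctsh, Ctsk and the Ctsz brightest probe set, the mean over probe sets put Ctsz at -0.79 with CsA. Rescaling shifted the untreated allograft against the syngraft by more than any other pair compared, and of the members Ctsz alone lost its call on the deposited values. List medians crossed the limit in 20 of 798 cases. Of the 3 nearest genes, quantile normalization kept 1 for Ctss, Ctsc and Ctsh and 2 for Ctsk, and the floor at the 50th percentile kept 0 for Ctsk. The signal of Ctsk was under 100 on 2 arrays, which limits its folds there, and with 1 array per group no value has an error.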
